A study of Homo sapiens with 11 samples.

Results

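Ikaros peaks of the B-cell precursor leukemia line JM1, taken after inhibition of the kinase CK2, were set beside Ikaros peaks of the untreated leukemia line REH. JM1 had been treated with the CK2 inhibitor CX-4945 at 20 µM for 1 day, and REH carried no treatment. Both are established human lines that the labels call pre-B acute lymphoblastic leukemia cells. They were grown in RPMI1640 with fetal bovine serum, and Ikaros was precipitated in both with the same Bethyl antibody. Each of these 2 conditions is 1 peak list from 1 library, so the comparison has no replicate check and no test between the lists. Line and treatment differ together here, so their parts in any difference cannot be told apart.

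The treated JM1 list held 88692 peaks and the REH list 83563. The treated JM1 list was reduced to its 83563 top-scored peaks, and peaks off chromosomes 1 to 22 and X were left out. This left 83498 treated JM1 peaks and 83516 REH peaks, out of 300249 peaks in the 5 deposited Ikaros lists of the series. The other 3 lists, from untreated JM1 (37419 peaks on the same chromosomes), untreated 697 (19610) and Nalm6 with the same CX-4945 treatment (70866), served as comparison lists. The antibody in 697 and Nalm6 was labelled as affinity-purified anti-Ikaros and was not the Bethyl one. The labels give 2 Ikaros libraries for Nalm6 behind its 1 list, and whether both entered it is not stated. Read depth and the 5 input libraries were not analysed here.

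Ikaros, encoded by IKZF1, is a zinc-finger DNA-binding protein of lymphoid cells that represses or activates genes and that is often deleted in high-risk B-cell precursor leukemia. It binds DNA with a GGGAA core and is concentrated in pericentromeric chromatin. CK2 is a serine/threonine kinase that phosphorylates Ikaros, and phosphorylation by CK2 is known to lower its DNA binding. As background on the lines, REH carries the ETV6::RUNX1 fusion of a translocation between chromosomes 12 and 21, has lost its unrearranged ETV6 allele and has a deletion in the short arm of chromosome 3.

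High-ranked peaks of each kind show what the lists hold at their top. Each line gives 200 bases of the GRCh38 plus strand around the peak centre (for shared peaks, the centre of the overlap), 5′ to 3′, with GGGAA and its complement TTCCC in capitals. The shared pair are promoter peaks, AC231981.1 at chr2:3519114-3519313 and SERTAD1, a regulator of cell-cycle transcription, at chr19:40425594-40425793.
AC231981.1: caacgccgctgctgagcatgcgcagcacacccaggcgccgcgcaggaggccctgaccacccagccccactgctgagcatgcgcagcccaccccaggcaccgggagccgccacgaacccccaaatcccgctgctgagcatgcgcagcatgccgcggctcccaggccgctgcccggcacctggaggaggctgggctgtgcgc
SERTAD1: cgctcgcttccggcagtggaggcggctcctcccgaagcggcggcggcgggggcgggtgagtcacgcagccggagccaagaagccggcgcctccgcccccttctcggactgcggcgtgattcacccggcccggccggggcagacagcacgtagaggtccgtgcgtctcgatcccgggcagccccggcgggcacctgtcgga
The treated JM1-only pair lie at a transcript end inside ATG101, an autophagy gene, at chr12:52073922-52074121, and between genes near AC245060.2 at chr22:22297934-22298133, within the immunoglobulin lambda locus.
ATG101: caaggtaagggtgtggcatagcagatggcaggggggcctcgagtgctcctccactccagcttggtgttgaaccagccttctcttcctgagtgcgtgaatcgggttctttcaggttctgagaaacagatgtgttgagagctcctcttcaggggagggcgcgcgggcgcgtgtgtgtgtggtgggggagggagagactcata
AC245060.2: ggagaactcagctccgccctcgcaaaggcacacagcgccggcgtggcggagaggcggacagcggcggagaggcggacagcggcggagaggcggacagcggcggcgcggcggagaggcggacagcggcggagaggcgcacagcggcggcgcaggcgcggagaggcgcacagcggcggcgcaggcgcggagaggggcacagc
The REH-only peak lies in an intron and is listed under HNRNPA1P37 at chr6:5632516-5632715.
HNRNPA1P37: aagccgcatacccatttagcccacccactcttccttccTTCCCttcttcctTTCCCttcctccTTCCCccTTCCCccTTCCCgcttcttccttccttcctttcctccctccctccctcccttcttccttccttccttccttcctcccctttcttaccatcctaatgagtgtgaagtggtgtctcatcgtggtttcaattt

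Of these 5 windows only that of HNRNPA1P37 contained the core, with 5 copies. The AC245060.2 window repeats a short unit and held only 80 different 6-base words, and the HNRNPA1P37 window held 114. The window of AC231981.1, a shared peak, also repeats a short unit and held 146 different words. The windows of SERTAD1 and ATG101 held 177 and 175. Repeated sequence was uncommon in the lists as a whole. Windows of 300 bases with fewer than 150 different 6-base words made up 1.09% of treated JM1-only peaks, 1.44% of REH-only peaks and 1.34% of the shared treated JM1 peaks. Among the 100 top-scored peaks of each list alone they numbered 2 in treated JM1 and 4 in REH. Windows with 10 or more copies of the core numbered 19 of 26570 treated JM1-only peaks and 22 of 27813 REH-only peaks.

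About as many peaks were shared in either direction. Of the treated JM1 peaks, 56928 of 83498 overlapped an REH peak by 1 bp or more, which is 68.2% (95% exact Clopper-Pearson interval 67.9 to 68.5). Of the REH peaks, 55703 of 83516 overlapped a treated JM1 peak, which is 66.7% (66.4 to 67.0). Here and below such intervals cover counting error only. In base pairs, 114.7 Mb was covered by both lists, which is 66.8% of the 171.7 Mb under treated JM1 peaks and 64.5% of the 177.7 Mb under REH peaks. These shares depend on the overlap asked for. With overlap of at least 50% of both peaks they were 35.9% for either list, and with each peak reduced to 500 bp around its centre they were 37.1%.

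Shared peaks were closer to genes, wider and higher scored. By the authors' annotation, promoter peaks made up 21.9% of the shared treated JM1 peaks (21.6 to 22.3) and 21.99% of the shared REH peaks (21.6 to 22.3). They made up only 5.80% of the treated JM1-only peaks (5.53 to 6.09) and 6.62% of the REH-only peaks (6.33 to 6.91). Introns held 46.1% of the list-specific peaks on either side and 37.6% and 37.7% of the shared ones. Intergenic peaks made up 24.96% of shared and 38.9% of list-specific treated JM1 peaks, and 25.1% and 36.6% in REH. The median distance from a peak centre to a protein-coding transcription start was 7.04 kb for shared and 22.97 kb for list-specific treated JM1 peaks, and 7.09 kb and 20.8 kb in REH.

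**Figure D1:**
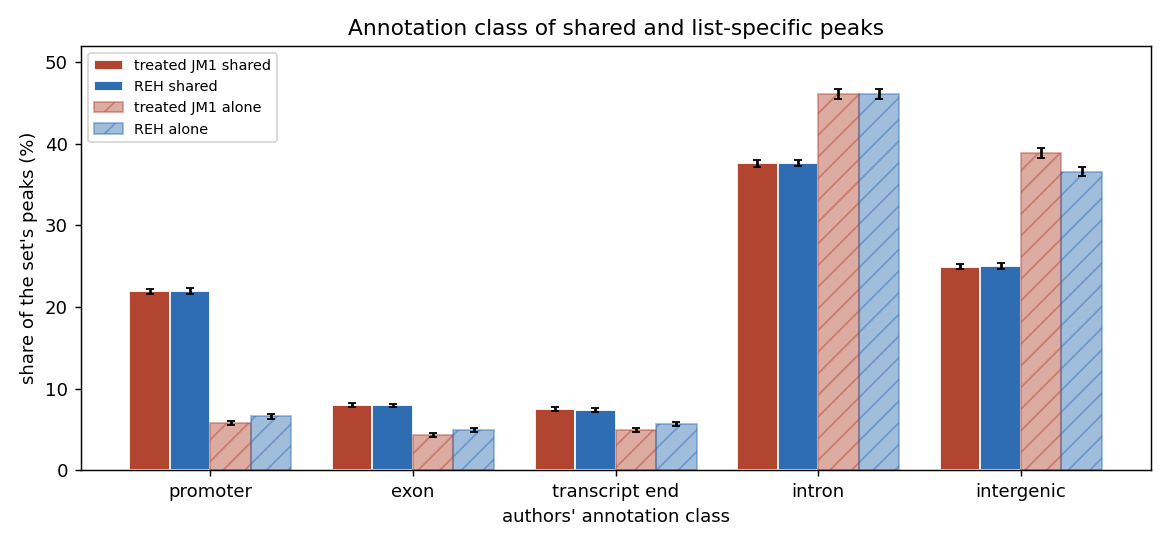
Share of peaks in each of the authors' annotation classes, in percent, for shared peaks (solid) and peaks of 1 list alone (hatched) of treated JM1 and REH; bars show 95% exact intervals for counting error. The promoter class holds 21.9% and 21.99% of shared peaks and 5.80% and 6.62% of list-specific ones.

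Read by class, 89.0% of treated JM1 promoter peaks and 86.9% of REH promoter peaks were shared. The shares were 79.8% and 76.2% in exons, 76.7% and 72.1% at transcript ends, 63.6% and 62.1% in introns, and 57.9% and 57.8% between genes. The order of the classes was the same in both lists. Median width was 1612 bp for shared and 675 bp for list-specific treated JM1 peaks, and 1625 bp and 602 bp in REH. Of peaks up to 500 bp wide, 36.2% in treated JM1 and 32.9% in REH were shared, against 99.6% and 99.4% of peaks over 5000 bp. A wide peak has more bases with which to meet another, and the part of width was not tested apart from this. Within 500 to 1000 bp, 85.8% of promoter and 53.2% of other treated JM1 peaks were shared, and 81.4% and 53.7% in REH, so promoters stood above other classes at similar width too.

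Scores were ranked within each list, since the authors' peak score is a value of the peak caller of unstated definition. The median score percentile was 64.7 for shared and 32.9 for list-specific treated JM1 peaks, and 59.5 and 29.9 in REH. From the lowest to the highest 10 percentile points the shared part went from 33.6% to 96.9% in treated JM1 and from 37.1% to 97.0% in REH. Percentiles were ranked over the whole list, so the lowest treated JM1 points held only the 2587 kept peaks with a score of 11. The lowest REH points held 9266 peaks, so the low ends do not cover the same part of each list. The top-scored peak of treated JM1 alone had a score of 92, while shared peaks reached 2101. In REH alone the highest score was 165, and shared peaks reached 1592. Hence 275 treated JM1-only and 248 REH-only peaks stood above the 90th percentile of their lists. At the score where the treated JM1 list was divided, 11, the 2587 peaks kept were shared at 33.6% and the 1578 left out at 34.1%. The 3551 peaks below, with a score of 10, were shared at 22.5%. Of the REH-only peaks, 4.04% overlapped one of these left-out treated JM1 peaks.

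**Figure D2:**
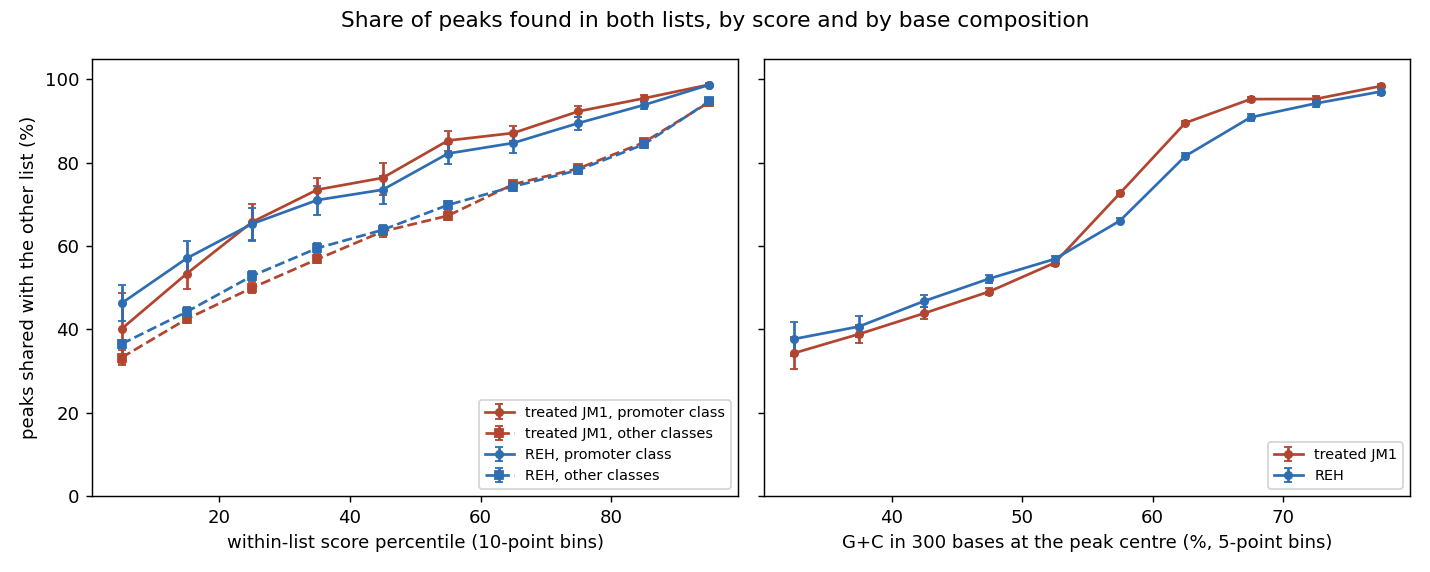
Percent of peaks shared with the other list against within-list score percentile (left, promoter class and other classes) and against the G+C percentage of the 300 bases at the peak centre (right), for treated JM1 and REH with 95% exact intervals for counting error. Higher-scored peaks are more often shared in both classes, and the shared part goes from 34.3% and 37.7% at 30 to 35% G+C to 98.4% and 97.1% at 75 to 80% G+C.

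Base composition moved with sharing as well. The median G+C of the central 300 bases was 57.7% for shared peaks of either list, 51.7% for treated JM1-only and 53% for REH-only peaks. Within the promoter class it was 63.7% for shared peaks of either list, 53% for treated JM1-only and 55% for REH-only peaks. The median ratio of observed to expected CpG in promoter peaks was 0.708 for shared treated JM1 peaks and 0.269 for treated JM1-only peaks, and 0.705 and 0.340 in REH. The list-specific promoter peaks were thus, on median, poorer in CpG than all 35116 RefSeq promoters of 300 bases (GRCh38.p14), whose ratio was 0.579 and whose windows are set by the start site.

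The Ikaros hexamer TGGGAA was compared between shared and list-specific peaks within each class. Searched on both strands in 300 bases, it was present in 28.5% of shared and 28.8% of list-specific treated JM1 peaks outside promoters, and in 28.4% and 28.2% of those of REH. Among non-promoter peaks of 45 to 55% G+C it was in 29.8% of shared (95% exact interval 29.1 to 30.6) and 29.4% of list-specific (28.6 to 30.1) treated JM1 peaks, and in 29.7% (28.998 to 30.5) and 28.1% (27.3 to 28.9) in REH, where the intervals did not overlap. In the promoter class it was present in 22.3% of shared (21.5 to 23.003) and 26.3% of list-specific (24.1 to 28.6) treated JM1 peaks. In REH it was in 22.5% (21.7 to 23.2) and 27.0% (24.99 to 29.1), and it was in 24.0% of RefSeq promoters. List-specific promoter peaks thus held it more often in both lists, beyond these intervals. They were also lower in G+C, and the part of base composition was not tested within promoters. The GATA hexamer AGATAA rose there too, from 5.23% of shared to 10.3% of list-specific peaks in treated JM1. In REH it went from 4.74% to 10.5%. The RUNX hexamer TGTGGT rose from 11.98% to 19.1% in treated JM1 and from 11.5% to 17.1% in REH. In the same order, the E2A hexamer CAGGTG rose from 26.9% to 31.9% and from 27.1% to 32.4%. The AP-1 letters TGACTCA rose from 3.17% to 4.73% and from 3.07% to 4.78%. A rise in list-specific promoter peaks was thus not particular to the Ikaros hexamer. The CTCF core AGGGGGC fell, from 15.9% to 7.52% in treated JM1 and from 15.8% to 9.13% in REH. The GC box GGGCGGG, bound by SP/KLF proteins, was in 34.1% of shared treated JM1 promoter peaks and 8.75% of treated JM1-only ones, 33.3% and 11.2% in REH, and 33.1% of RefSeq promoters. The core CCGGAAG of ETS factors was in 8.47% and 4.09% in treated JM1, 9.10% and 5.16% in REH, and 10.3% of RefSeq promoters. Outside promoters the RUNX hexamer TGTGGT was in 18.8% of shared and 21.5% of list-specific treated JM1 peaks and in 18.5% and 20.7% in REH. Among non-promoter peaks of 45 to 55% G+C, RUNX matches came to 21.7% and 22.6% in treated JM1 and 20.8% and 22.4% in REH. GATA matches, AGATAA, were in 7.44% of shared and 11.2% of list-specific treated JM1 peaks outside promoters and in 7.53% and 9.88% in REH. At 45 to 55% G+C they were in 10.95% and 10.8% in treated JM1 and 11.005% and 10.2% in REH. The other letters searched, both strands, were CAGGTG (E2A), TGACTCA (AP-1), AGAGGAAGT (PU.1), AGGGGGC (CTCF core), an EBF palindrome, an IRF repeat and a pair of Ikaros cores, which can overlap TGGGAA. The CTCF core was in 11.4% of shared and 6.50% of list-specific treated JM1 peaks outside promoters and in 11.5% and 7.28% in REH. At 45 to 55% G+C it was in 6.33% and 5.39% in treated JM1 and 6.44% and 5.36% in REH. A match is a description of the letters and not of a bound site.

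Where peaks met, they were alike in kind but loosely ranked. Overlaps formed 61699 pairs, and in 43285 of them (70.2%) neither peak met any other peak of the opposite list. In these pairs the centres were a median of 269 bp apart, 85.3% had the same annotation class, and 47.6% were wider in treated JM1. Across pairs, Spearman's rho was 0.57 between score percentiles and 0.59 between widths, as a description, since both share the sequence beneath. The strongest shared promoter pairs had these scores in treated JM1 and REH. AC231981.1 had 2101 and 517. KMT2A, the histone methyltransferase gene rearranged in infant leukemia, had 584 and 341. RPS19, a ribosomal protein gene, had 212 and 416, and DARS, the aspartyl-tRNA synthetase gene, 185 and 440. SMARCA4, the ATPase of the BAF remodelling complex, had 486 and 157. All 5 also overlapped a peak in untreated JM1 and in Nalm6. The other 5 of the top 10 were DNASE1, which overlapped no untreated JM1 peak, SMUG1, which overlapped no Nalm6 peak, and STK32C, PRMT2 and KHDRBS1, which overlapped a peak in both.

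Some shared promoters stood at opposite ends of the rankings, and these 8 in each direction were chosen after their values were seen. CFLAR, an inhibitor of caspase-8 activation, was at percentile 94.8 in treated JM1 (score 48) and 8.83 in REH (13). BSN reached percentile 99.9 in treated JM1 (274) and 14 in REH (score 14), where the peak was named for BSN-DT. PARD3, a cell polarity gene on chromosome 10, was at percentile 11.9 in treated JM1 (12) and 99.7 in REH (140), and CACNB2, a calcium channel subunit on the same chromosome, at 11.9 (12) and 98.4 (97). NEDD1, a centrosomal gene, was at 18.8 (13) and 97.2 (82).

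Treated JM1-only and REH-only peaks were found in untreated JM1 at similar, low shares. Of the 26570 treated JM1-only peaks, 4.82% (4.56 to 5.08) overlapped an untreated JM1 peak, against 5.31% (5.05 to 5.58) of the 27813 REH-only peaks. Shared peaks, which were wider and higher scored, overlapped the untreated JM1 list at 42.5% and 42.9%. At widths of 500 to 1000 bp the gap was smaller. There 25.9% of shared and 4.72% of list-specific treated JM1 peaks overlapped it, and 24.6% and 5.32% in REH. Seen from the untreated JM1 list, 78.5% of its peaks lay in both lists, 5.10% in treated JM1 alone, 6.75% in REH alone and 9.68% in neither. Among promoter peaks, 7.85% (6.55 to 9.30) of treated JM1-only and 7.72% (6.54 to 9.03) of REH-only peaks overlapped untreated JM1. With only the 40000 top-scored peaks per list the shares were 19.1% and 18.8%, and with peaks of 500 bp they were 9.45% and 9.36%. These repeats were chosen after seeing the data.

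Nalm6, which had the same CX-4945 treatment as JM1, held 15.03% (14.6 to 15.5) of treated JM1-only peaks and 21.4% (20.9 to 21.9) of REH-only peaks. For 697 the shares were 0.836% and 1.23%. In total 81.4% of treated JM1-only and 75.3% of REH-only peaks appeared in none of the 3 comparison lists. The comparison lists differ in length and antibody, so their shares are comparable between the sets but not between comparison lists.

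**Figure D3:**
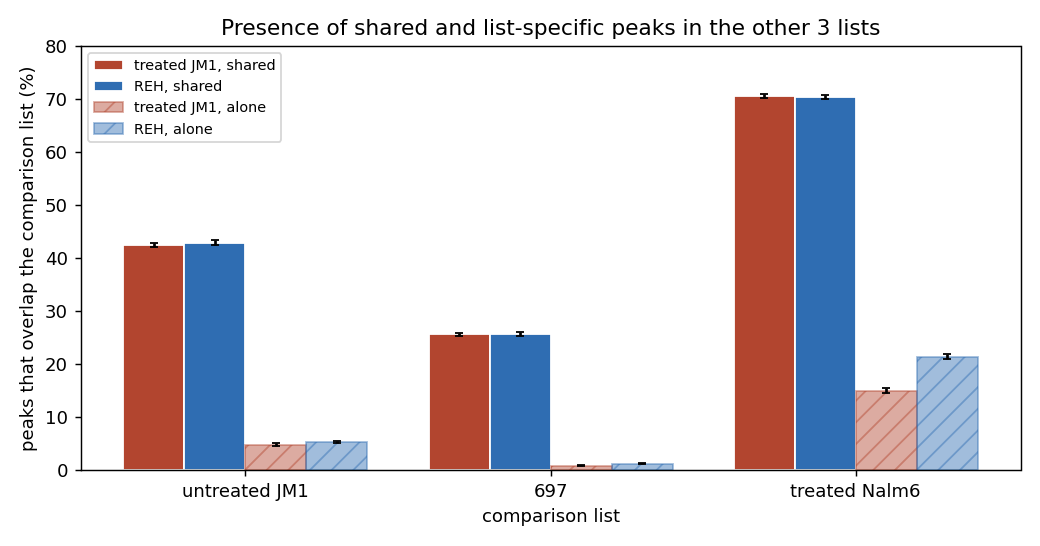
Percent of peaks that overlap each comparison list, for shared peaks (solid) and peaks of 1 list alone (hatched) of treated JM1 and REH, with 95% exact intervals for counting error. In untreated JM1 the list-specific bars stand at 4.82% and 5.31%, and in Nalm6 at 15.03% and 21.4%.

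List-specific peaks were unevenly spread over the chromosomes. Chromosome X held 1626 treated JM1 and 966 REH peaks. Of these, 57.6% (55.1 to 59.98) were in treated JM1 alone and 23.8% (21.2 to 26.6) in REH alone. Chromosome 16 went the other way, with 3526 and 4235 peaks, of which 19.4% (18.1 to 20.7) and 41.6% (40.1 to 43.1) were list-specific. On chromosome 3 the shares were 41.4% and 36.0%, on chromosome 9 they were 24.4% and 34.3%, and on chromosome 20 they were 35.0% and 26.9%. Median widths on X were similar, 1010.5 bp in treated JM1 and 973 bp in REH. Copy number was not measured in these files, and its part in the counts per chromosome was not tested.

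**Figure D4:**
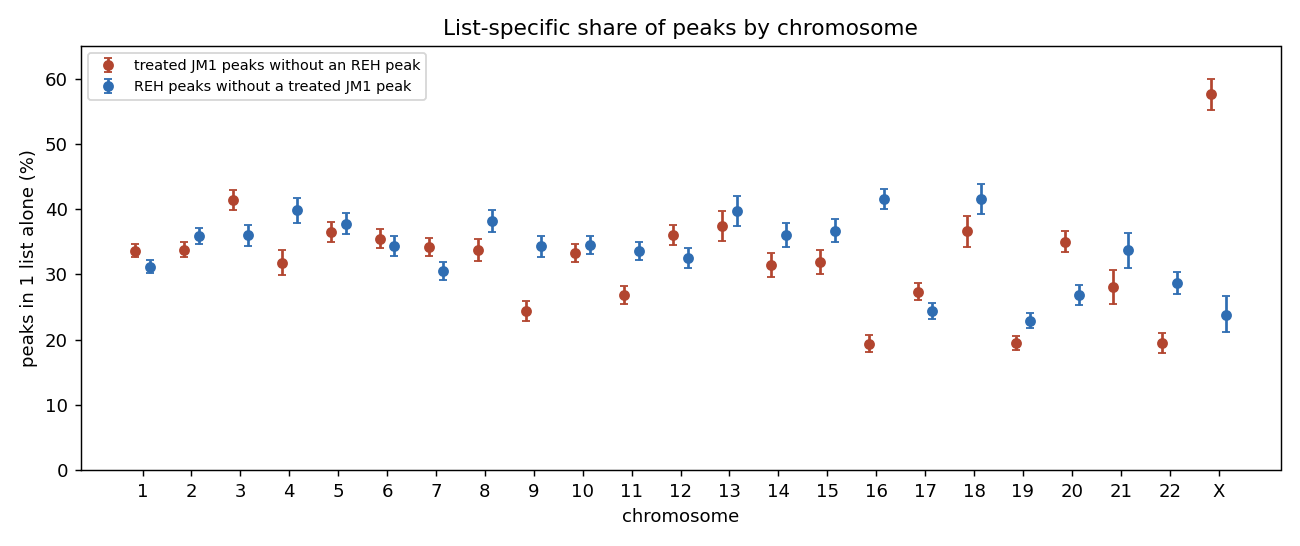
Percent of each chromosome's peaks found in 1 list alone, for treated JM1 and REH, with 95% exact intervals for counting error. X stands highest for treated JM1 (57.6%), and chromosome 16 is at 19.4% for treated JM1 and 41.6% for REH.

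The differences on X and on chromosomes 3 and 10 lay in long segments, placed after the counts were seen. Between 50 and 140 Mb of X there were 912 treated JM1 and 371 REH peaks, while between 40 and 50 Mb there were 117 and 160. The 50 to 140 Mb segment held 1.09% of the treated JM1 list, 0.444% of REH, 0.698% of untreated JM1, 0.658% of 697 and 0.456% of Nalm6. Between 30 and 60 Mb of chromosome 3, treated JM1 had 1067 peaks and REH 679. That was 1.28% and 0.813% of the lists, and the other 3 lists held 1.24%, 1.31% and 1.38%, so REH was the low list. Between 10 and 40 Mb of chromosome 10, treated JM1 had 244 peaks and REH 595. That was 0.292% and 0.712%, with 0.179% in untreated JM1, 0.571% in 697 and 0.563% in Nalm6, so both JM1 lists were low. Of the 281 bins of 10 Mb with 100 or more peaks, REH exceeded treated JM1 by over 1.5 times in 4, and treated JM1 exceeded REH by as much in 14.

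The longest runs of peaks from 1 list with none of the other between them lay mostly on X for treated JM1 and on chromosomes 10 and 1 for REH. For treated JM1 the longest, 36 peaks, spanned chrX:86194848-100411629, with DIAPH2, PCDH11X and DACH2 among its 11 protein-coding genes. It was followed by 20 peaks over TENM1 and its neighbours at chrX:125203140-128781788. Only 1 of the 8 longest treated JM1 runs lay off X, with 16 peaks around CDH18 on chromosome 5. For REH the longest, 27 peaks, covered FRMD4A and FAM107B at chr10:13830053-14541766, and none of these overlapped an untreated JM1 peak. The next, 22 peaks at chr1:4466678-4656512, ended in AJAP1, and 11 of them overlapped a Nalm6 peak. Between 4 and 6 Mb of chromosome 1, treated JM1 had 54 peaks, REH 203, Nalm6 164 and untreated JM1 4. By gene name, SCN10A, a sodium channel gene on chromosome 3, RAC1P7, DANT2 and RN7SKP195 each had 6 peaks in treated JM1 with none in REH, the most of any name, and Z98747.1 on chromosome 1 the most in REH with none in treated JM1 (10).

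Single loci of B-cell and leukemia biology, picked after earlier results were known, also differed. In ETV6, which encodes a repressor of the ETS family, treated JM1 had 11 peaks and REH 3. Both shared the promoter peak, with scores of 63 and 67, and every other peak was list-specific. The REH intron peaks were at chr12:11773750-11774200 and chr12:11812905-11813401, upstream of the last 7 treated JM1 peaks. Untreated JM1 had 2 peaks in the gene, 697 had 1 and Nalm6 had 5.

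The immunoglobulin heavy chain locus had 9 peaks in treated JM1, 4 of them list-specific, and 25 in REH, 20 of them list-specific. The widest REH-only peak of all, 10430 bp with a score of 66, lay over IGHM, the mu constant gene, at chr14:105850102-105860531, with the nearest treated JM1 peak 139.6 kb away. A peak there was also in Nalm6, which had 23 peaks in the locus, and not in untreated JM1, which had 2. The lambda light chain locus went the other way, with 44 treated JM1 and 32 REH peaks. Within it, the promoter of VPREB1, a surrogate light chain gene of pre-B cells, had a treated JM1 peak of 4172 bp (score 22) at chr22:22241578-22245749 with no REH peak. Untreated JM1 and Nalm6 had a promoter peak there too. PAX5, the B-lineage commitment factor, had 27 and 31 peaks, RUNX1 30 and 41, and IKZF1 itself 11 and 12.

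**Figure D5:**
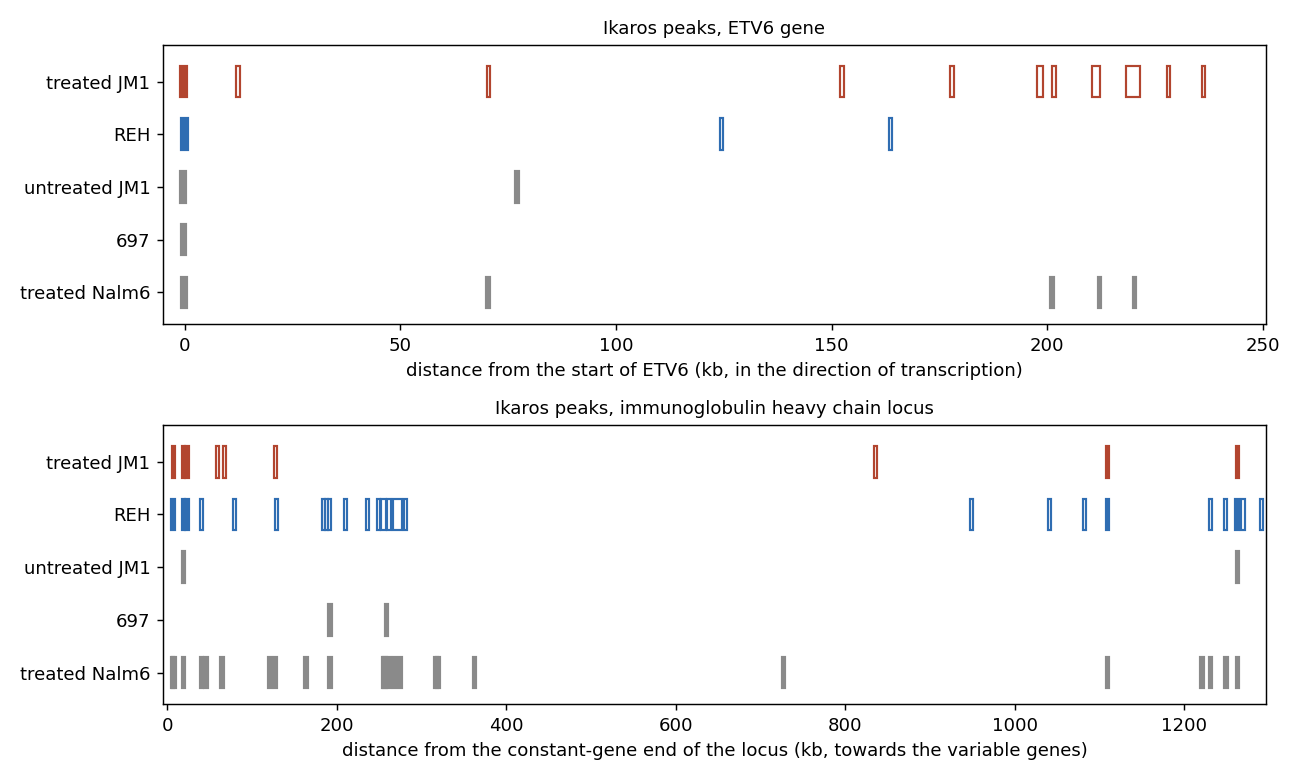
Ikaros peaks along ETV6 and along the immunoglobulin heavy chain locus in each of the 5 lists, as distance in kb; filled boxes for treated JM1 and REH are shared peaks, open boxes list-specific ones, grey boxes are the comparison lists, and narrow peaks are drawn wider than they are so that they can be seen. ETV6 has 11 peaks in treated JM1 and 3 in REH, and the heavy chain locus 9 and 25.

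Gene by gene, most promoters had a peak in both lists. A protein-coding gene was counted when any of its GENCODE starts lay within 1000 bp of a peak. Each list was counted by itself, so a gene in 1 list alone may have a peak there that overlaps a peak of the other list. Of 19962 genes, 15697 (78.6%) had a promoter peak in both lists, 496 (2.48%) in treated JM1 alone, 682 (3.42%) in REH alone and 3087 (15.5%) in neither. By the authors' promoter class and gene name in place of this rule, 2255 genes were in treated JM1 alone and 2159 in REH alone, so which list had more depends on the rule. Of the 496 genes, 90 (18.1%) were on X, as were 45 of the 682 (6.60%), while X holds 4.303% of all these genes. On chromosome 16, 1 gene was in treated JM1 alone and 28 in REH alone. Of the treated JM1-alone genes 12.3% had a promoter peak in untreated JM1, and of the REH-alone genes 13.0%. The share was 59.0% over all these protein-coding genes and 73.9% over the genes in both. All 3 comparison lists had one at 14 of the 496 genes, GPC3 and IRS4 on X among them. They had one at 15 of the 682, among them CD5, IL7, MT1E and DCLK1, and at 8365 of the 15697 genes in both.

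The highest-ranked list-specific promoter peaks of treated JM1 were at NGLY1, a deglycosylase gene of chromosome 3 (score 85), LINC02268 (79), SCML1, a Polycomb-related gene of X (78), DMBT1P1 (69), GTF2F2, a subunit of the initiation factor TFIIF (65), and POT1, a telomere-end binding protein gene (60). The SCML1 peak also overlapped a peak in untreated JM1 and in Nalm6, and the peaks of NGLY1, GTF2F2 and POT1 overlapped none in either. Then came PACERR, which lies beside PTGS2, and MRPS33 (59 each), ESYT1 and ZSCAN30 (56 each). This ranks single peaks, and a gene named here can still have a peak of the other list at another start. By the gene rule above, NGLY1, ESYT1 and ZSCAN30 were not in treated JM1 alone. The highest-ranked promoter peaks in REH alone were at UBXN2B (103), ATF7IP2 (102), ZNF45 (95), DNAJC1 and EPSTI1 (94 each) and MT1E, a metallothionein gene (92). Then came LINC01571 (78), ETFA (76), TPRKB (74) and COPB1 (73). The DNAJC1 peak overlapped a treated JM1 peak that was left out by score. Of these 10, 7 overlapped a Nalm6 peak, against 4 of the 10 in treated JM1. Over all list-specific promoter peaks the shares were closer, 30.5% of 1840 in REH and 22.6% of 1542 in treated JM1. Outside the authors' promoter class the leading REH-only peaks also included GNG11 (100), whose peak lies in its exon 1 and within 1000 bp of a start, TCF7L2, a Wnt pathway factor (90), ELK3 (88) and ZBTB16 (84), and those of treated JM1 included COL23A1 (73) and a peak near SMIM10 on X (57).

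Lists of named genes were read against these shares. Over the 23 lists, 396 of 453 genes (87.4%) had a promoter peak in both peak lists, 7 in treated JM1 alone (1.55%) and 5 in REH alone (1.10%), below the 2.48% and 3.42% over all protein-coding genes. In the 18 lists of B-lineage and general cell functions 343 of 364 genes (94.2%) had one in both, and in the 5 lists of T-cell, myeloid, erythroid, neuron and liver, muscle or pancreas markers 55 of 91 (60.4%). All 21 early B-lineage transcription factor genes had a promoter peak in both. Peaks do not measure expression, so the labelled cell type was not checked further. The genes in treated JM1 alone were VPREB1, the interleukin-3 receptor gene IL3RA (score 16), the Polycomb subunit SUZ12 (16), the chemokine receptor CXCR5 (12), the T-cell gene CD3D (14) and the myeloid genes MS4A7 (31) and S100A9 (25). In REH alone they were the erythroid factor GATA1 (17), the end-joining factor XRCC4 (16), the ribosomal protein gene RPL4 (26), CD5 (32) and the liver gene TTR (20). CD5, a T-cell marker, also had a promoter peak in untreated JM1, 697 and Nalm6, so among the 5 lists treated JM1 alone lacked it.

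The 5 Ikaros family genes all had a promoter peak in both lists. IKZF1 scored 46 (percentile 94.3) in treated JM1 and 92 (98.1) in REH, and IKZF5 19 (56.1) and 32 (77.8). For IKZF2 the scores were 86 and 100, for IKZF3 64 and 74, and for IKZF4 81 and 60. The CK2 catalytic subunit genes CSNK2A1 and CSNK2A2 and the regulatory subunit gene CSNK2B had a promoter peak in both lists. Their percentiles were 97.3, 99.2 and 95.2 in treated JM1 and 94.9, 99.5 and 90.2 in REH. CSNK2A3 had no promoter peak in either list, though both had other peaks under its name. BCL2L1, which encodes the anti-apoptotic protein BCL-XL, scored 63 (97.2) and 40 (86.0). In the BCL2 family 16 of 17 genes were in both, and 9 of the 16 stood at a higher percentile in treated JM1. The family's medians went the other way, with 91.8 in treated JM1 and 95.1 in REH. Over all 15697 genes in both, 51.5% stood higher in treated JM1, with medians of 90.2 and 89.8. Treated JM1 percentiles were ranked over its whole list, including the peaks left out by score, which raises them somewhat. Over all compared peaks the median percentile was 51.1 in treated JM1 and 48.5 in REH.

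Of the 23 lists, the widest gap between the medians of the 2 peak lists was in the 20 genes of the ETV6-RUNX1 leukemia signature, drawn up from general knowledge with the fusion of REH in mind. All 20 had a promoter peak in both, with a median percentile of 85.0 in treated JM1 and 94.5 in REH, and 4 of 20 stood higher in treated JM1. Lists of other cell types were nearly as far apart, with medians of 74.3 and 82.7 for the myeloid markers in both lists and 80.7 and 72.6 for the neuron markers. The genes higher in treated JM1 were also a minority in several other lists. Examples were later B-cell and alternative-fate factors (3 of 16), early B-lineage factors (6 of 21), B precursor surface markers (5 of 15) and cell cycle genes (9 of 31). Adhesion and homing genes were another (5 of 21), though their medians went the other way, 90.2 in treated JM1 and 86.7 in REH. Some lists had a majority higher in treated JM1, such as the neuron markers (12 of 17). SOX11, a neural and lymphoma-associated factor, was at percentile 85.0 in treated JM1 (score 30) and 98.9 in REH (106). SEMA6A, a semaphorin gene, was at 45.6 (17) and 95.2 (67), and PTPRK, a receptor phosphatase gene, at 26.0 (14) and 97.6 (86). EPOR, the erythropoietin receptor gene, was at 87.2 (32) and 97.9 (89), and RAG2, a subunit of the V(D)J recombinase, at 32.9 (15) and 83.6 (37). The 4 that stood higher in treated JM1 were KCNN1, a potassium channel gene, at 99.5 (120) and 97.1 (81), PIK3C3, a phosphoinositide kinase gene, at 51.1 (18) and 19.5 (15), CLIC5, at 83.7 (29) and 72.6 (29), and TCFL5, at 99.3 (104) and 98.997 (108). Scores of different lists are on scales of their own, so the percentiles carry the order within each list and not a change between them. The list was made with earlier results known and is a description.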

How the data were processed

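Ikaros ChIP-seq peaks on GRCh38 were used as deposited. Per the submitters' processing notes, the tools named were Bowtie2 2.3.4.3, MACS2 2.1.1 and HOMER 4.10, and per the labels' protocols reads were trimmed with BBDuk. Not given in the sources used here were the calling settings, any control library and how scores were computed. Each deposited list gives position, the authors' peak score, an annotation class and a gene name. The score is the authors' own value per peak and was used to rank peaks within a list (percentile by mid-rank over the whole list).

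Ties at the score where the treated JM1 list was divided were broken in a fixed random order. Overlap was 1 bp or more. Shares have 95% exact Clopper-Pearson intervals. Protein-coding starts came from GENCODE 44, RefSeq promoter sequences from GRCh38.p14, and no peak lay past the end of a GRCh38 sequence. Python 3.11.15 with pandas, scipy and pysam did the work, and the overlap steps were tested on simulated intervals. Genes were named by rank: the top 10 shared promoters, the top 10 promoter and top 10 other peaks of each list alone, the genes with most list-specific peaks, the 8 longest runs and 5 widest peaks per list, the Ikaros, CK2 and BCL2L1 genes, and list members in 1 list alone. A further sequence that the rank rule selects is not reported here. The members and gene lists were chosen with earlier results of these data known. Alternatives were another overlap rule, other list lengths, all sequence names and another promoter rule.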

Additional observations from a re-analysis of the deposited data

How the results depend on the processing

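The shared part depended most on the overlap rule and the list length. As reported, 68.2% of treated JM1 and 66.7% of REH peaks were shared. The pair became 35.9% and 35.9% with overlap of at least 50% of both peaks, 37.1% and 37.1% with peaks of 500 bp, 65.7% and 68.0% with the whole treated JM1 list, 69.3% and 65.8% without the treated JM1 peaks at the tied score, and 64.1% and 62.2% with only the 40000 top-scored peaks per list. The promoter percentages of shared treated JM1, treated JM1-only and REH-only peaks were 28.8%, 10.0% and 10.1% with overlap of at least 50%, 27.6%, 10.4% and 10.6% with peaks of 500 bp, and 36.1%, 10.2% and 12.2% with the 40000 top-scored peaks. With the whole treated JM1 list the first was 21.6%. Shared peaks held the larger promoter share under each of these. Genes with a promoter peak in treated JM1 alone and REH alone numbered 496 and 682 as reported, 1157 and 1229 with peaks of 500 bp, 931 and 1260 with the 40000 top-scored peaks, and 2255 and 2159 by the authors' promoter class, where the order turned. That rule gives each peak 1 gene name. The overlap rule does not enter the gene counts, so that alternative gives them no value. No paired analysis was possible because each condition has 1 list, and for the same reason no list could be left out. Depth behind the lists was not analysed here, so a peak absent from a list may lie below its calling limit.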
